A study of Rattus norvegicus with 20 samples.

Results

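Liver transcripts of rats exposed to PBDE-47 at 50 mg/kg per day, the highest dose of a 4-group study, were compared with those of vehicle controls. PBDE-47 is a brominated diphenyl ether from flame retardant mixtures, which persists in fat and passes into milk. All 31042 non-control probe sets of the array were members of this comparison, and 10 of the 20 arrays entered it directly, 5 labelled 50 mg/kg and 5 labelled vehicle. Timed-mated Wistar Han dams (Crl:WI (Han)) received corn oil at 5 mL/kg by gavage each day from gestation day 6 to postnatal day 4, with PBDE-47 at 10 mg/mL in the 50 mg/kg group and with none in the vehicle group. Another 5 arrays at 15 mg/kg (3 mg/mL) supplied values to set beside these, and 5 at 0.1 mg/kg (0.02 mg/mL) entered only the shared estimate of the spread. RNA came from the left lateral lobe on postnatal day 4. The labels tie dosing to the dams and do not say in words whether each liver was a pup's. Nor do they say whether a group holds 5 different animals or litters, so its spread, and with it every p-value, may be partly technical.

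The labelled tissue was checked against its markers. Albumin (Alb) read 14.76 to 14.79 on the 50 mg/kg arrays and 14.77 to 14.79 on the vehicle arrays, on a log2 scale whose highest value was 14.82. Afp, made by fetal and newborn hepatocytes, read 14.26 to 14.34 at 50 mg/kg and 14.21 to 14.34 in vehicle. The sex label is female on every array, yet the Y-linked gene Eif2s3y read 9.02 to 9.21 at 50 mg/kg and 9.004 to 9.48 in vehicle. Uty, also Y-linked, read 8.74 to 9.04 at 50 mg/kg and 8.82 to 9.20 in vehicle. Both genes read alike on all 10 arrays, and whether their probe sets also read the copies on the X chromosome was not tested.

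Some arrays stood apart through muscle transcripts. The mean of 20 skeletal muscle genes was 6.35, 4.30, 5.64, 6.73 and 4.84 in replicates 1 to 5 at 50 mg/kg, against 4.30, 8.19, 4.10, 4.45 and 4.24 in vehicle. Acta1, skeletal muscle actin, read 9.67, 3.30, 8.62, 10.71 and 6.91 at 50 mg/kg, against 3.51, 12.23, 2.72, 4.44 and 3.46 in vehicle. Replicates 1 and 4 at 50 mg/kg and vehicle replicate 2 were over 2 log2 units above the lowest array of the study, and replicate 3 at 50 mg/kg was over 1. Each group of results is therefore also given without the arrays over 2 units, which keeps 3 arrays at 50 mg/kg and 4 in vehicle. That fit also keeps only 3 arrays at 15 mg/kg and 1 at 0.1 mg/kg, so fewer arrays estimate the spread. Of those left out, 15 mg/kg replicate 5 and 0.1 mg/kg replicate 2 exceeded the limit in pancreas genes, with means of 6.89 and 6.82. All arrays left out are called muscle-carrying below. How far lost calls reflect the fewer arrays was not tested. Of the 20 muscle genes 0 passed the limma test described below, with a median log2 change of 0.40, which was 0.09 to 1.32 when single arrays were omitted. Pancreas genes were low on all 10 arrays, with Prss1 at 3.25 to 3.50 at 50 mg/kg and 3.00 to 3.25 in vehicle.

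A newborn liver meets foreign compounds through receptors that sense them. The nuclear receptors CAR and PXR bind DNA as partners of RXR and raise genes for the oxidation, conjugation and export of fat-soluble compounds. The aryl hydrocarbon receptor (AhR) is a separate sensor for flat aromatic molecules, and its best known target is Cyp1a1. Oxidation is carried out by cytochrome P450 enzymes, which need heme and electrons from NADPH. Conjugation adds glucuronic acid or glutathione to the product, and transporters such as Abcc3 move it out of the cell. Hepatocytes also oxidize fatty acids, break down amino acids and secrete most plasma proteins, and they share the tissue with resident macrophages, the Kupffer cells.

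The comparison asked which liver transcripts differ at this dose, and 290 probe sets passed at an adjusted p under 0.05 (limma, Benjamini-Hochberg adjustment), or 0.934% of those tested. Of these 182 rose (0.586%) and 108 fell (0.348%). Small changes were the largest class. A total of 13 rises and 0 falls exceeded 1.5 log2 units. Another 72 rises and 56 falls lay between 0.5 and 1.5, called mid-size here, and 97 rises and 52 falls were smaller. Among the 290, the 5 arrays at 50 mg/kg did not overlap the 5 vehicle arrays for 153 rises and 88 falls. Over all probe sets tested, the groups did not overlap for 552 that were higher (1.78%) and 367 that were lower (1.18%). The called probe sets with a single gene symbol stand for 233 genes, 156 higher and 77 lower. With 1 probe set per gene, as used for the gene lists, 145 of 14217 genes rose (1.02%) and 60 fell (0.422%), and the median log2 change over all genes was 0.01.

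**Figure D1:**
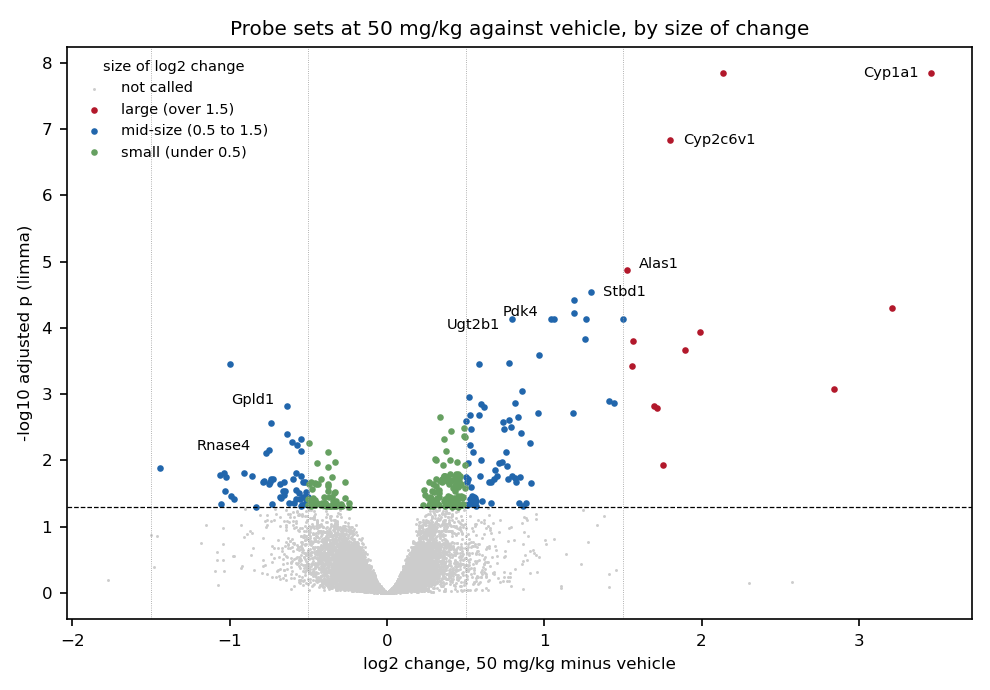
Each point is a probe set, with its log2 change at 50 mg/kg against vehicle on the x axis and the limma adjusted p as -log10 on the y axis. The dashed line marks 0.05 and the dotted lines 0.5 and 1.5 log2 units; the 13 large rises are red, mid-size changes blue and small ones green, and no fall reached 1.5.

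When arrays were left out 1 at a time, the call remained in all 10 fits for 72 of the 182 rises and 18 of the 108 falls. Without replicate 4 at 50 mg/kg 106 probe sets passed, and without vehicle replicate 4 137 did. The other 4 exposed arrays (replicates 1, 2, 3 and 5) left 219, 250, 181 and 152 when omitted, and the other 4 vehicle arrays left 226, 180, 177 and 264. No called change turned its sign in these fits, and none moved by over 1.5 times. Without the arrays that carried muscle transcripts 21 probe sets passed, 18 higher and 3 lower, of which 19 were among the 290. The sizes of the 290 in that fit had a median ratio of 0.971 to those with all arrays, and a range of 0.506 to 1.39.

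**Figure D2:**
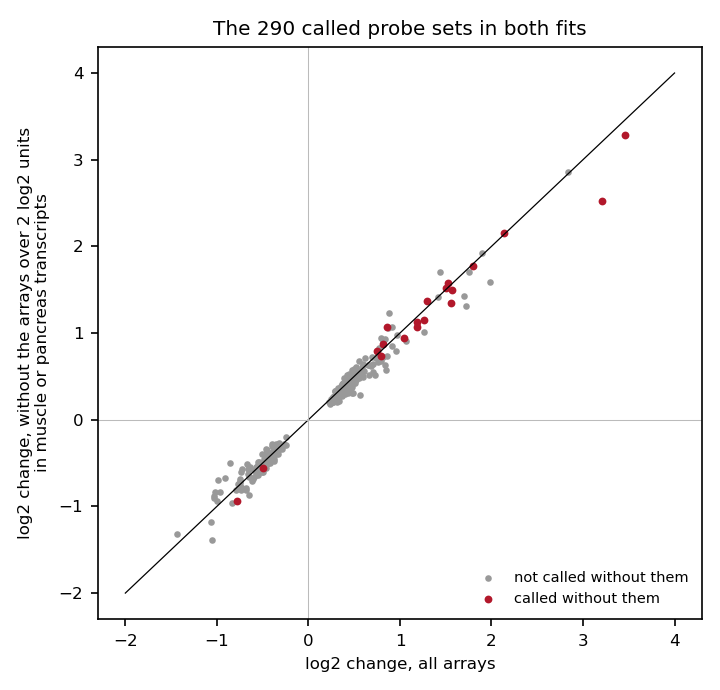
Each of the 290 called probe sets is drawn by its log2 change with all arrays (x axis) and without the arrays over 2 log2 units in muscle or pancreas transcripts (y axis); the line marks equal values. Every point keeps its sign, and the red points mark the 19 probe sets that were still called with the fewer arrays.

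The large rises included 4 P450 genes, the aldehyde dehydrogenase Aldh1a1 and genes of other kinds. Cyp1a1, the AhR target, read 11.33, 10.76, 10.68, 11.34 and 11.51 at 50 mg/kg, against 7.94, 7.52, 7.80, 7.88 and 7.21 in vehicle. Cyp2a3, a P450 of the coumarin hydroxylase subfamily, read 9.03, 8.16, 9.03, 8.71 and 9.73 at 50 mg/kg, against 4.71, 5.98, 5.86, 6.54 and 7.35 in vehicle. The vehicle arrays differed among themselves more for Cyp2a3 than for Cyp1a1, and in neither gene did the groups overlap. Meox2, a homeobox gene, read 8.51, 7.02, 7.58, 7.79 and 7.72 at 50 mg/kg, against 5.03, 6.93, 5.76, 6.59 and 5.54 in vehicle, so that its lowest exposed array lay just above its highest vehicle array. The log2 changes were 3.46 (SE 0.22, adjusted p = 1.43e-08) for Cyp1a1, 2.84 (SE 0.40, adjusted p = 0.000841) for Cyp2a3 and 1.75 (SE 0.33, adjusted p = 0.0118) for Meox2. The other named large rises were of Cyp2c7, Cyp2c6v1, Aldh1a1, Ces2c, Ddc, Dnajb3, Ugt2b10 and Alas1, and Abcc3, an exporter of conjugates, rose by just under 1.5. Each of these 12 calls remained without any single array. Without the arrays over 2 units in muscle transcripts, the calls of Cyp2a3 (adjusted p = 0.0908), Aldh1a1 (0.0747), Meox2 (0.108), Ces2c (0.108) and Dnajb3 (0.0548) ended, while Cyp1a1, Cyp2c7, Cyp2c6v1, Ddc, Ugt2b10, Alas1 and Abcc3 passed. These genes and Ephx1, described below, were 0.766 to 1.04 times as large in that fit. Of 58 measured P450 genes, a family chosen after the values were seen, 7 rose, against 1.02% of all genes. In this family 0 fell and 51 did not pass, and its median log2 change was 0.17.

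P450 enzymes work with partners, and several of these rose by mid-size or small amounts. Por, the reductase that passes electrons from NADPH to all microsomal P450s, read 10.03, 9.80, 9.91, 10.08 and 10.19 at 50 mg/kg, against 10.05, 8.95, 8.88, 9.06 and 8.99 in vehicle. The exposed arrays were alike and vehicle replicate 1 stood at their level, so that the groups overlapped. The log2 change was 0.82 (SE 0.16, adjusted p = 0.0186, n = 5 per group), and omitting any of 5 arrays ended the call, namely exposed replicates 4 and 5 and vehicle replicates 2, 3 and 4, while the change stayed within 0.74 to 1.03. A further, dimmer probe set of Por was at 0.54 and did not pass (adjusted p = 0.25). Of the 11 NADPH supply genes only Me1 passed, with Idh1 next at 0.30 (adjusted p = 0.0937).

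Cyb5a and Fdx1, named after their values were seen, encode electron carriers for microsomal and mitochondrial P450s. Cyb5a read 13.24 to 13.34 at 50 mg/kg and 12.87 to 13.16 in vehicle (log2 change 0.30, SE 0.05, adjusted p = 0.00950). Fdx1 read 12.01 to 12.24 at 50 mg/kg and 11.29 to 11.92 in vehicle (log2 change 0.45, SE 0.09, adjusted p = 0.0191). For both the groups did not overlap and the call remained without any single array. The smaller P450 rises included Cyp3a23-3a1, which metabolizes steroids and drugs, at 13.59 to 13.66 with 50 mg/kg and 12.63 to 13.41 in vehicle (log2 change 0.78, SE 0.12, adjusted p = 0.00241). Its exposed arrays lay within a narrow band, while vehicle replicate 1 was close below them. Cyp2c11, known as a P450 of adult male rat liver, was dim and rose by 0.79 (SE 0.13, adjusted p = 0.00311), reading 4.73 to 5.53 at 50 mg/kg and 4.36 to 4.61 in vehicle. Cyp2d4, named after its values were seen, rose by 0.29 (adjusted p = 0.0292), a call that ended without 8 of the 10 arrays, the exceptions being replicate 1 at 50 mg/kg and vehicle replicate 3. None of Por, Cyb5a, Fdx1, Cyp2c11, Cyp2d4 and Cyp3a23-3a1 passed with the muscle-carrying arrays omitted, where the smallest adjusted p was 0.19 and the changes were 0.861 to 1.17 times as large.

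Alas1, the rate-limiting enzyme of heme synthesis, supplies the prosthetic group of these enzymes. It read 11.71, 11.53, 11.82, 12.01 and 12.05 at 50 mg/kg, against 9.62, 10.62, 10.34, 10.35 and 10.58 in vehicle. All exposed arrays were higher, and vehicle replicate 1 was the lowest by a clear gap. It was the only called gene of 15 for heme synthesis and breakdown, whose median was -0.07. The promoter windows of Alas1 and Cyp2c7 are shown because these genes rose together with other receptor targets. Both are RefSeq windows of build GRCr8, 250 bases before to 50 after the gene start, at chr8:115768593-115768892 (minus strand) for Alas1 and chr1:247966144-247966443 (plus strand) for Cyp2c7. Capitals mark GCGTG, the core of the element that AhR binds, in Alas1, and AGGTCA, a hexamer that many nuclear receptors bind, in Cyp2c7. Only a single motif was marked in each window. Both genes are on the list of CAR and PXR targets used below, and neither is on that of AhR targets.
Alas1: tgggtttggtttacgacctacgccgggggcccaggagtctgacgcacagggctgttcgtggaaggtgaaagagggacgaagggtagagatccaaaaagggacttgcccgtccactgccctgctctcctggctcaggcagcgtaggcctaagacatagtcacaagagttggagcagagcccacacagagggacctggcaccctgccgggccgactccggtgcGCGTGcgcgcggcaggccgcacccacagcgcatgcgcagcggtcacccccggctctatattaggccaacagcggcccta
Cyp2c7: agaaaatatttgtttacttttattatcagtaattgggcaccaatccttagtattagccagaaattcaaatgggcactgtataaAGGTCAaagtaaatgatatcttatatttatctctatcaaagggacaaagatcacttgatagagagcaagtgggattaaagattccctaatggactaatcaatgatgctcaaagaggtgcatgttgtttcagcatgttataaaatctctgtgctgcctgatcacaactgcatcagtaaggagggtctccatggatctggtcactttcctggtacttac
Each motif was searched on both strands, and the capitals are its only match in the window shown. GCGTG was found in 45.1% of 142 windows of genes that rose, 49.3% of 75 windows of genes that fell and 44.4% of 13242 windows of all genes tested. AGGTCA was found in 21.1%, 9.33% and 13.2% of the same sets of windows. A match is a description of the letters and no measure of binding.

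Some enzymes of conjugation rose, mainly glucuronosyltransferases and glutathione transferases. Of 37 conjugation genes measured, 9 rose, 0 fell and 28 did not pass, against 1.02% of all genes rising, and the list's median was 0.16. Ugt2b1, which joins glucuronic acid to steroids and drugs, read 13.41, 13.10, 13.29, 13.41 and 13.25 at 50 mg/kg, against 12.43, 12.57, 12.35, 12.74 and 12.38 in vehicle. Its groups were well separated at a high level (log2 change 0.80, SE 0.09, adjusted p = 7.3e-05). Ugt2b15, of the same subfamily, read 11.70, 11.60, 11.42, 11.72 and 11.32 at 50 mg/kg, against 10.80, 11.01, 10.91, 10.85 and 10.64 in vehicle (log2 change 0.71, SE 0.13, adjusted p = 0.0110). Ugt2b10 rose by 1.56, Ugt2b35 by 0.33 and Ugt2a1, named after its values were seen, by 0.70. By symbol, 5 of 9 measured glucuronosyltransferase genes rose, with a median of 0.64, but Ugt2b genes are close copies, and their probe sets may share transcripts. None of 14 sulfotransferase genes passed, with a median of 0.07.

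Of 23 measured glutathione transferases, which attach glutathione to reactive products, 6 rose, by 0.33 to 0.81, against 1.02% of all genes. Gsta3 read 11.89, 11.64, 11.90, 11.94 and 12.00 at 50 mg/kg, against 10.85, 11.42, 10.89, 10.82 and 11.31 in vehicle (log2 change 0.81, SE 0.12, adjusted p = 0.00135). The 5 exposed arrays were close together and above all vehicle arrays. Gstm1 rose by 0.77 (SE 0.15, adjusted p = 0.0189), Gstt2 by 0.54 (SE 0.09, adjusted p = 0.00339) and the microsomal Mgst2 by 0.33 (SE 0.07, adjusted p = 0.0280). Gstt1 rose by 0.37, Gstt3 by 0.52 and Ddt, a tautomerase gene beside them, by 0.37. Gstt3 and Ddt were named after their values were seen. Ddt read 11.87 to 12.09 at 50 mg/kg and 11.50 to 11.72 in vehicle, without overlap.

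Of these 11 conjugation calls, those of Ugt2b1, Ugt2b15, Gsta3, Gstt2 and Ddt remained without any single array, as did that of Ugt2b10 above. Replicate 4 at 50 mg/kg ended the other 6, replicate 5 at 50 mg/kg and vehicle replicate 4 ended 5 each, and every array ended at least 1, with sizes of 0.789 to 1.14 times the full value in all these fits. Without the muscle-carrying arrays Ugt2b1 and Gsta3 still passed, and the 11 changes were 0.738 to 1.08 times as large.

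Enzymes that handle carbonyls, epoxides and esters also rose. Of 30 genes for hydrolases and other oxidases of drugs 5 rose, 1 fell and 24 did not pass, with a median of 0.18. Of all genes 1.02% rose and 0.422% fell. Ephx1, microsomal epoxide hydrolase, read 12.28, 11.89, 12.09, 12.31 and 12.28 at 50 mg/kg, against 11.35, 11.09, 10.55, 10.84 and 11.08 in vehicle (log2 change 1.19, SE 0.12, adjusted p = 3.81e-05). Pir, which encodes the iron-binding protein pirin, read 7.40, 6.78, 7.13, 7.12 and 7.18 at 50 mg/kg, against 6.23, 5.87, 6.26, 6.26 and 6.19 in vehicle (log2 change 0.96, SE 0.15, adjusted p = 0.00194). In both genes every exposed array exceeded every vehicle array. Akr7a2, an aldehyde reductase, rose by 0.53 (SE 0.08, adjusted p = 0.00203), reading 9.28 to 9.54 at 50 mg/kg and 8.74 to 9.05 in vehicle. Smaller rises were found for Cbr4 (0.47), a mitochondrial carbonyl reductase, and, named after their values were seen, for Akr1e2 (0.46), Cmbl (0.46) and Akr1c14 (0.38). The 2 further probe sets of Akr1c14 were at 0.26 and 0.35 and did not pass.

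Aldh1b1, a mitochondrial aldehyde dehydrogenase, fell (log2 change -0.51, SE 0.12, adjusted p = 0.0456). It read 10.46, 10.68, 10.58, 10.35 and 10.69 at 50 mg/kg, against 11.31, 11.15, 10.98, 10.77 and 11.09 in vehicle, all lower without overlap. Its call remained only without vehicle replicate 4. The call of Ephx1 remained without any single array. Of the other rises of this kind, those of Pir and Akr7a2 remained without any single array, and the others ended without replicate 4 at 50 mg/kg, among other arrays, at 0.855 to 1.15 times their size. With the muscle-carrying arrays omitted Ephx1 passed and none of the other 7 did, at 0.764 to 1.14 times the full size.

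**Figure D3:**
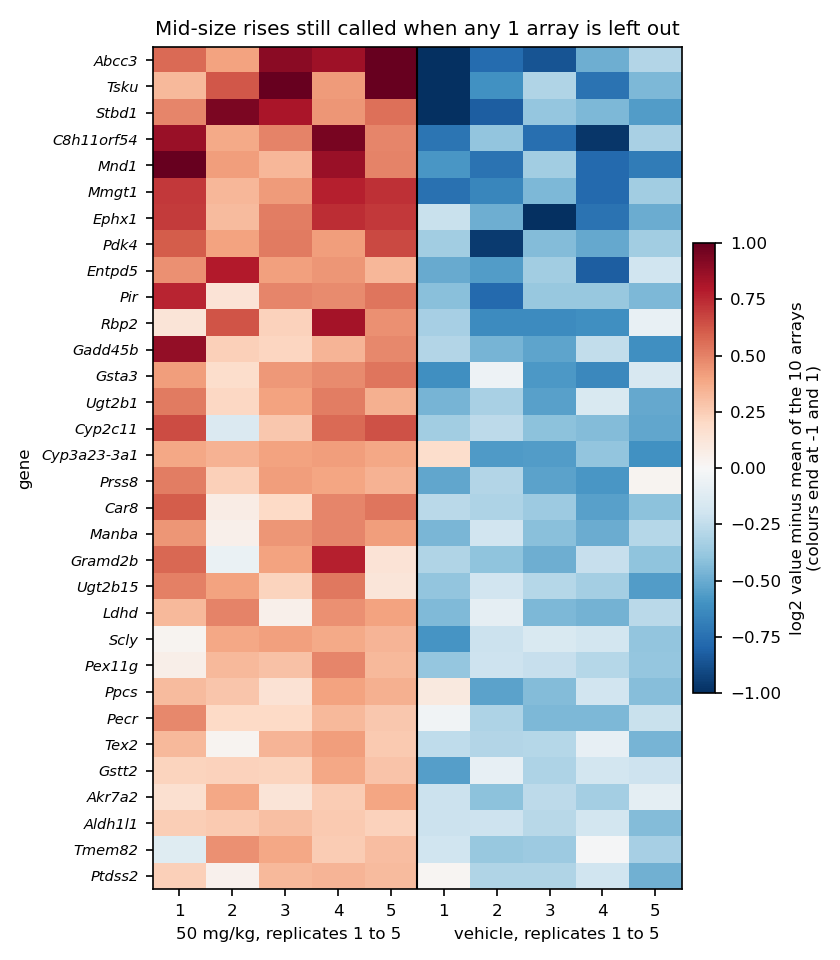
Each row is a mid-size rise that was still called when any 1 array was left out, 32 genes ordered by size. Colours give each array's log2 value minus the mean of the 10 arrays, with 50 mg/kg replicates 1 to 5 left of the line and vehicle replicates 1 to 5 right of it. Exposed arrays are mainly red and vehicle arrays mainly blue, and the few cells on the other side of the mean include Cyp3a23-3a1 in vehicle replicate 1 and Cyp2c11 in exposed replicate 2.

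Fat-handling genes rose in a scattered way, led by mitochondrial and peroxisomal enzymes. Of 38 genes of fatty acid oxidation and ketogenesis 5 rose, against 1.02% of all genes, 0 fell and 33 did not pass. A positive sign was found for 37 of the 38, against 7503 of all 14217 genes, and the list's median was 0.21. Pdk4, the kinase that shuts off pyruvate oxidation in favour of fatty acids, read 10.20, 10.00, 10.12, 10.02 and 10.25 at 50 mg/kg, against 9.25, 8.64, 9.16, 9.09 and 9.25 in vehicle (log2 change 1.04, SE 0.12, adjusted p = 7.3e-05). The exposed arrays were close together and lay clear of vehicle. Acot4, a peroxisomal thioesterase that frees acids from CoA, read 8.18, 8.57, 9.04, 8.67 and 8.81 at 50 mg/kg, against 8.09, 7.76, 8.03, 7.60 and 7.22 in vehicle (log2 change 0.91, SE 0.19, adjusted p = 0.0219). Exposed replicate 1 was only just above vehicle replicate 1. Ehhadh (0.87), Eci1 (0.56) and Cpt2 (0.54), which act in peroxisomal and mitochondrial beta-oxidation, also rose. A dim further probe set of Eci1 was at 0.01 and did not pass.

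Peroxisome genes outside that list, named after their values were seen, rose too. Pecr, which reduces enoyl-CoA in chain elongation, read 12.43, 12.14, 12.15, 12.27 and 12.22 at 50 mg/kg, against 11.91, 11.64, 11.49, 11.50 and 11.72 in vehicle (log2 change 0.59, SE 0.08, adjusted p = 0.000345). Pex11g, a protein of peroxisome division, rose by 0.60 (SE 0.09, adjusted p = 0.00140), reading 7.68 to 8.11 at 50 mg/kg and 7.23 to 7.41 in vehicle. The peroxisomal protease gene Lonp2 rose by 0.44 (SE 0.09, adjusted p = 0.0162). In none of these did the groups overlap. Pex11g was the only one of 14 peroxin genes to pass, and their median was 0.21.

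Genes of other lipid steps rose by 0.37 to 0.91. Rbp2, a retinol carrier of intestine, read 7.43, 7.93, 7.53, 8.13 and 7.76 at 50 mg/kg, against 6.97, 6.67, 6.68, 6.69 and 7.23 in vehicle (log2 change 0.91, SE 0.15, adjusted p = 0.00542). Me1, malic enzyme, which makes NADPH, rose by 0.84 (SE 0.17, adjusted p = 0.0180), and a further probe set of Me1 rose by 0.83 (adjusted p = 0.00218). Pmvk, of cholesterol synthesis, rose by 0.56 and was the only called gene of 23 in that list, whose median was 0.44. The mean level of these 23 genes was 9.49 to 9.87 on the 50 mg/kg arrays, against 8.57 in vehicle replicate 1 and 9.35 to 9.49 in the other vehicle arrays. Omission of single arrays gave medians of 0.21 to 0.51. Named after their values were seen were rises of Ppcs (0.60), of CoA synthesis, Agmo (0.66), which cleaves ether lipids, Ptdss2 (0.51), which makes phosphatidylserine, and Lyplal1 (0.49). Fitm2 (0.45) and Sar1b (0.44), of lipid droplets and lipoprotein export, Mgll (0.43), a monoglyceride lipase, and Ttpa (0.37), the vitamin E carrier, rose as well. A second probe set of Ttpa, of like brightness, was at 0.01 (adjusted p = 0.989).

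Among the 19 lipid genes named here the calls of Pdk4, Pecr, Pex11g, Lonp2, Lyplal1, Fitm2, Rbp2, Ptdss2 and Ppcs remained without any single array. Omitting exposed replicate 4 ended the other 10, vehicle replicate 4 ended 9 and replicate 5 at 50 mg/kg 8, and each remaining array ended 2 to 7, at 0.792 to 1.25 times the full size. Without the muscle-carrying arrays only Pdk4 passed, and the 19 changes were 0.676 to 1.22 times as large.

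Genes of amino acid and one-carbon metabolism rose by 0.31 to 0.88. Of 47 amino acid breakdown genes 3 rose, against 1.02% of all genes, 0 fell and 44 did not pass, with a median of 0.13. Those that rose were Ddc, which makes dopamine and serotonin, Dmgdh (0.56), which passes methyl carbon to folate, and Shmt2 (0.45), the mitochondrial serine enzyme of the folate cycle. Aldh1l1, which oxidizes formyl-folate to carbon dioxide and NADPH, read 11.35, 11.37, 11.41, 11.37 and 11.34 at 50 mg/kg, against 10.89, 10.90, 10.83, 10.92 and 10.67 in vehicle (log2 change 0.52, SE 0.07, adjusted p = 0.00112). The 5 exposed arrays were almost identical. Scly, which takes selenium out of selenocysteine, read 9.42, 9.78, 9.81, 9.78 and 9.73 at 50 mg/kg, against 8.81, 9.18, 9.25, 9.21 and 9.002 in vehicle (log2 change 0.61, SE 0.09, adjusted p = 0.00154). Replicate 1 was the lowest of each group. Ethe1, which oxidizes sulfide in mitochondria, rose by 0.88 (SE 0.20, adjusted p = 0.0441), reading 8.72 to 9.48 at 50 mg/kg and 7.65 to 8.69 in vehicle.

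Further rises of this kind were of Ldhd (0.69), D-lactate dehydrogenase, Thnsl2 (0.65), a threonine synthase-like gene, and Urad (0.52), of uric acid breakdown. Gamt (0.48), of creatine synthesis, Grhpr (0.36), of glyoxylate removal, Apip (0.36), of methionine salvage, and Sdsl (0.31), a serine dehydratase relative, were smaller. All of these but Ethe1, Dmgdh and Shmt2 were named after their values were seen, outside the rule for named genes given below. The exceptions entered by that rule, which uses the values too. The calls of Aldh1l1, Scly, Ldhd and Apip remained without any single array. Replicate 4 at 50 mg/kg and vehicle replicate 4 each ended the other 8, and every other array ended at least 2, at 0.799 to 1.198 times the full size. The call of Shmt2 ended whichever array was left out. None of the 12 passed without the muscle-carrying arrays, where they were 0.867 to 1.39 times as large.

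Small rises were found for some subunits of the proteasome, the machine that degrades tagged proteins. Of 30 proteasome genes on the list 6 rose by 0.23 to 0.32, against 1.02% of all genes rising, 0 fell and 24 did not pass. All 30 had a positive sign, against 7503 of all 14217 genes. The list's median was 0.17 and its range 0.02 to 0.34. Taken by symbol, 34 of 37 subunit genes were positive. The 3 negative ones were the interferon-induced subunits Psmb8 (-0.57), Psmb9 (-0.35) and Psmb10 (-0.09), none of which passed. Psmc3, an ATPase subunit of its cap, read 10.62, 10.70, 10.65, 10.63 and 10.77 at 50 mg/kg, against 10.36, 10.28, 10.34, 10.35 and 10.50 in vehicle (log2 change 0.31, SE 0.06, adjusted p = 0.0100). Psmb4, Psma6 and Psma4 of the core and Psmc5 and Psmc1 of the cap also rose. The groups did not overlap except for Psmc1. Of 40 respiratory chain genes 0 passed, 31 had a positive sign and the median was 0.05. Of 56 cytosolic ribosomal protein genes 0 passed, 14 had a positive sign and the median was -0.06.

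Some mitochondrial genes, gathered from the called genes after their values were seen and so no test of a theme, rose by 0.26 to 0.61. Tefm, which keeps mitochondrial RNA polymerase on its template, read 7.81, 7.74, 7.73, 7.62 and 7.73 at 50 mg/kg, against 7.36, 7.43, 7.37, 7.19 and 7.48 in vehicle (log2 change 0.36, SE 0.07, adjusted p = 0.0115). Of 73 mitochondrial ribosomal protein genes 4 rose (Mrpl1, Mrpl14, Mrpl37 and Mrps24, by 0.27 to 0.47), against 1.02% of all genes. A positive sign was found for 60 of the 73, against 7503 of all 14217 genes, and their median was 0.10. Ptcd3 (0.27) and Mtg1 (0.30) act on the same ribosome, Dnaja3 (0.36) and Hspd1 (0.26) are chaperones of the matrix, and Iba57 (0.39) serves iron-sulfur clusters. Timm10b (0.43), Metap1d (0.61), Chchd6 (0.48) and Ndufaf1 (0.40) act in import, protein trimming, cristae and complex I assembly. The complex I subunit gene Ndufa7 rose by 0.43, but a brighter probe set of it was at 0.15 and did not pass. Outside mitochondria or in several compartments, Sod1 (0.24), its copper chaperone Ccs (0.31), Txnl1 (0.27), Nsfl1c (0.31) and Ide (0.27) also rose. A brighter probe set of Txnl1 was at 0.16 and further ones at 0.03 and 0.08, those of Ide were at 0.09 and 0.25, and none of these passed.

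Of these 26 genes only Psmc3 and Tefm kept the call without any single array. Omitting exposed replicate 4 ended 22 of the others, replicate 5 21 and vehicle replicate 4 20, and each remaining array ended 8 to 18, at 0.812 to 1.22 times the full size. In the fit lacking the muscle-carrying arrays none passed, at 0.635 to 1.10 times the full size, and Chchd6 was at 0.31.

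Several of the larger mid-size rises were of genes with roles apart from drug metabolism. Tsku, a secreted protein that liver releases into plasma, read 9.41, 9.71, 10.23, 9.51 and 10.18 at 50 mg/kg, against 7.57, 8.48, 8.78, 8.35 and 8.64 in vehicle (log2 change 1.44, SE 0.21, adjusted p = 0.00135). Stbd1, which tethers glycogen to membranes, read 10.01, 10.46, 10.34, 9.96 and 10.08 at 50 mg/kg, against 8.49, 8.70, 9.14, 9.07 and 8.97 in vehicle (log2 change 1.30, SE 0.13, adjusted p = 2.87e-05). Stbd1 was the only one of 14 glycogen genes to pass, and their median was -0.02. C8h11orf54, of little known function, read 9.91, 9.43, 9.55, 10.00 and 9.54 at 50 mg/kg, against 8.32, 8.66, 8.30, 8.08 and 8.73 in vehicle (log2 change 1.27, SE 0.14, adjusted p = 7.3e-05). A dim further probe set of it was at 0.14 and did not pass. In all 3 genes the groups stood apart.

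Mnd1, known for pairing chromosomes in meiosis, read 9.54, 8.93, 8.84, 9.37 and 9.001 at 50 mg/kg, against 7.92, 7.77, 8.16, 7.73 and 7.81 in vehicle (log2 change 1.26, SE 0.15, adjusted p = 0.000148). Mmgt1, a subunit of the complex that inserts membrane proteins at the endoplasmic reticulum, rose by 1.19 (SE 0.13, adjusted p = 6.04e-05), and its further probe set rose by 1.06 (adjusted p = 7.3e-05). Both probe sets thus gave similar sizes. Entpd5, a nucleotidase that helps sugar trimming in the same organelle, read 9.53, 9.86, 9.48, 9.51 and 9.40 at 50 mg/kg, against 8.57, 8.51, 8.72, 8.25 and 8.87 in vehicle (log2 change 0.97, SE 0.12, adjusted p = 0.000254), and a further probe set rose by 0.78. Gadd45b, a stress-induced gene whose product also binds CAR in mouse liver, read 6.70, 6.05, 6.03, 6.15 and 6.29 at 50 mg/kg, against 5.52, 5.35, 5.29, 5.57 and 5.20 in vehicle (log2 change 0.86, SE 0.12, adjusted p = 0.000909). It was the only one of 25 immediate early genes to pass.

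Car8 (0.76), a carbonic anhydrase relative without that activity, Manba (0.74), a lysosomal mannosidase, and Prss8 (0.76), a membrane protease, also rose. Named after their values were seen were Gramd2b (0.73), Slc26a1 (0.68), a sulfate and oxalate exchanger, Kcnj5 (0.66), a potassium channel subunit, and Mmp15 (0.59), a membrane metalloproteinase, as were all further rises of this paragraph except that of Tom1l3. The vitamin C transporter gene Slc23a1 rose by 0.51. Krt8 and Krt18, which pair to form the filaments of hepatocytes, rose by 0.45 and 0.37 and were the only called members of 25 keratin genes. DNA repair and replication genes Parp1 (0.45), Rfc2 (0.46), Nthl1 (0.33) and Xrcc5 (0.33) rose by small amounts. Of 46 cell cycle and replication genes 0 rose, 44 did not pass and 2, Gen1 and Gas6, fell, against 0.422% of all genes. That list's median was -0.03. Tom1l3 (0.82), Epb41l5 (0.57), Tex2 (0.55), Wfdc3 (0.55), Tmem82 (0.52), Cpped1 (0.51) and Styxl1 (0.51) complete the mid-size rises named.

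Of these 28 rises 13 remained without any single array, among them Tsku, Stbd1, C8h11orf54, Mnd1, Mmgt1, Entpd5 and Gadd45b. Replicate 4 at 50 mg/kg ended 13 of the other calls and vehicle replicate 4 ended 12, and each remaining array ended 3 to 9, at 0.833 to 1.24 times the full size. Without the muscle-carrying arrays Stbd1, C8h11orf54 and Mmgt1 passed and the 28 changes were 0.506 to 1.23 times as large, with Epb41l5 at 0.29 and Xrcc5 at 0.22.

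Genes of macrophages were among the falls. Of 14 Kupffer cell and macrophage genes 6 fell, 0 rose and 8 did not pass, against 0.422% of all genes falling. All 14 had a negative sign, against 6714 of all 14217 genes, and the list had a median of -0.40 and a range of -0.78 to -0.05. In whole liver, fewer cells of a type and less RNA per cell cannot be told apart. C1qb, a chain of the complement starter C1q that macrophages make, read 9.93, 9.85, 9.76, 9.69 and 9.88 at 50 mg/kg, against 10.32, 10.40, 10.19, 10.70 and 10.37 in vehicle (log2 change -0.57, SE 0.10, adjusted p = 0.00577). C1qc read 9.16, 9.18, 9.18, 8.90 and 9.14 at 50 mg/kg, against 9.71, 9.54, 9.60, 9.85 and 9.61 in vehicle (log2 change -0.55, SE 0.12, adjusted p = 0.0377). Neither overlapped, and replicate 4 was the lowest exposed array and the highest vehicle array in both. Slc40a1, the iron exporter ferroportin, fell (log2 change -0.45, SE 0.09, adjusted p = 0.0224), reading 10.39 to 10.74 at 50 mg/kg and 10.90 to 11.19 in vehicle, and by 0.36 at the brighter probe set used for the list. The scavenger receptor Cd163 fell by 0.48, the lysosomal glycoprotein Cd68 by 0.48 and Ms4a6a by 0.78. Clec4f, specific to Kupffer cells in rodents, was at -0.34 and Adgre1, which encodes the F4/80 antigen, at -0.26, and neither passed.

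Other genes of macrophages, phagocytes and their vesicles fell as well. Spic, the transcription factor of iron-recycling macrophages, read 6.15, 5.58, 5.79, 5.36 and 5.39 at 50 mg/kg, against 6.59, 6.17, 6.00, 6.33 and 6.58 in vehicle (log2 change -0.68, SE 0.14, adjusted p = 0.0224). Exposed replicate 1 lay within the vehicle range. Aif1 and Lcp1, of the phagocyte cytoskeleton, fell by 0.54 and 0.58, and the oxidase subunit gene Cyba by 0.54. A dim second probe set of Aif1 was at 0.06 and did not pass. Pld4 fell by 0.67, the adhesion receptor Vcam1 by 0.54, and the lysosomal and vesicle genes Cd63 and Npc2 by 0.45 and 0.29. Of 26 lysosome and autophagy genes 2 fell, Cd63 and Npc2, against 0.422% of all genes. In that list Stbd1 rose and 23 did not pass, and the median was -0.06. Fxyd5 (-0.72) and Tifab (-0.62) and, named after their values were seen, Cd302 (-0.51), Ms4a6bl1 (-0.44), Ptprj (-0.38) and Wipf1 (-0.35) were lower too. For Ptprj a further probe set was at -0.04 and did not pass.

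Other cell types of the tissue were read in the same way. Of 7 neutrophil, 12 erythroid and 5 megakaryocyte genes 0 passed, with medians of -0.47, -0.30 and -0.31. All of them had a negative sign, against 6714 of all 14217 genes. Of 11 endothelial genes 0 passed (median -0.02), as with 16 stellate cell and fibroblast genes (0.04), 12 T and NK cell genes (-0.04) and 11 hepatocyte genes (-0.05). Omission of single arrays moved the neutrophil median between -0.59 and -0.30, the erythroid median between -0.46 and -0.11 and the macrophage median between -0.50 and -0.37. The mean level of the erythroid genes was 7.82 to 9.14 at 50 mg/kg and 8.48 to 9.22 in vehicle, and its part in the macrophage falls was not tested.

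Of the 20 macrophage and vesicle calls only those of C1qb and Ptprj remained without any single array. Omitting exposed replicate 4 and vehicle replicate 4 each ended 17 of the others, and each remaining array ended 6 to 13, at 0.732 to 1.22 times the full size. The calls of C1qc and Cyba ended whichever array was left out. With the muscle-carrying arrays omitted Ms4a6a passed, all 20 stayed negative and they were 0.753 to 1.27 times as large.

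**Figure D4:**
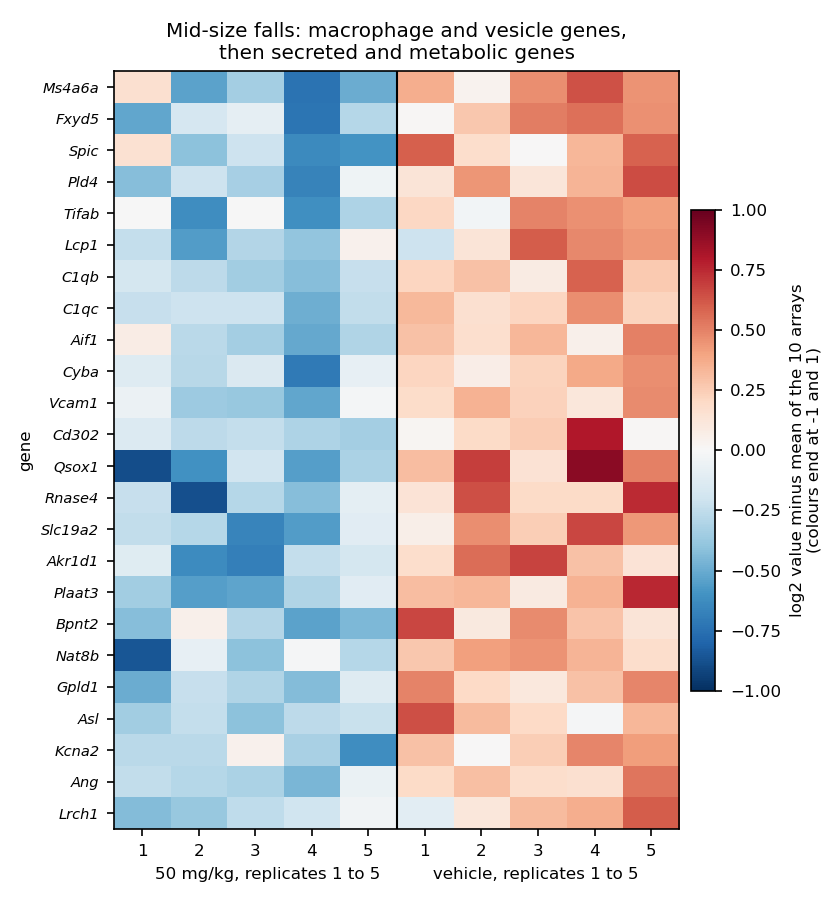
Each row is a mid-size fall, 12 genes of macrophages and vesicles above 12 secreted and metabolic genes, each set ordered by size. Colours give each array's log2 value minus the mean of the 10 arrays, with 50 mg/kg replicates 1 to 5 left of the line and vehicle replicates 1 to 5 right of it. Exposed arrays are mainly blue; Ms4a6a and Spic in exposed replicate 1 are among the cells on the other side of the mean.

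Genes of secreted proteins and of hepatocyte metabolism made up a second set of falls. Rnase4, a secreted ribonuclease, read 11.66, 11.01, 11.61, 11.46 and 11.79 at 50 mg/kg, against 12.03, 12.53, 12.08, 12.08 and 12.63 in vehicle (log2 change -0.77, SE 0.14, adjusted p = 0.00773). A brighter probe set of it fell by 0.37 (adjusted p = 0.0230). Ang, the ribonuclease angiogenin, read 11.32, 11.29, 11.25, 11.11 and 11.51 at 50 mg/kg, against 11.76, 11.87, 11.75, 11.73 and 12.11 in vehicle (log2 change -0.55, SE 0.09, adjusted p = 0.00476). Neither gene's groups overlapped, and vehicle replicate 5 was the highest array for both. Their RefSeq gene starts lie 54 bases apart on GRCr8 chromosome 15, so their promoter windows are nearly the same sequence. The Ang window, chr15:26785983-26786282 on the plus strand, is shown with the 246 bases it shares with the Rnase4 window in capitals.
Ang: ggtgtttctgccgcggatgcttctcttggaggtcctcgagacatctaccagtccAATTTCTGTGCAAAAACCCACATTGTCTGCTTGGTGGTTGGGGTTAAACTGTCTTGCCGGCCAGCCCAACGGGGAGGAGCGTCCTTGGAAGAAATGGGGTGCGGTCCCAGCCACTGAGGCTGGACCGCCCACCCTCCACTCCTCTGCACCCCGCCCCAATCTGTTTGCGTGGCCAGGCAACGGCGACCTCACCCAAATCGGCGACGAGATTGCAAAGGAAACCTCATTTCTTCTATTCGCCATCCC
These genes are known to share a promoter in mouse and human, and the array does not tell which start was used.

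Gpld1, which cuts proteins from their lipid anchors in plasma, read 9.20, 9.47, 9.39, 9.26 and 9.57 at 50 mg/kg, against 10.19, 9.89, 9.80, 9.99 and 10.19 in vehicle (log2 change -0.64, SE 0.09, adjusted p = 0.00152). Plaat3, a phospholipase, read 10.24, 10.04, 10.06, 10.29 and 10.48 at 50 mg/kg, against 10.90, 10.92, 10.68, 10.93 and 11.34 in vehicle (log2 change -0.73, SE 0.12, adjusted p = 0.00274). In both the exposed arrays were all lower than vehicle. Serpina7, thyroxine-binding globulin, read 12.08, 11.78, 11.83, 11.80 and 11.60 at 50 mg/kg, against 12.27, 12.39, 12.19, 12.40 and 12.32 in vehicle (log2 change -0.50, SE 0.08, adjusted p = 0.00542). Rarres1 (-0.50) and the lipase Pla1a (-0.49), named after their values were seen, fell too. Of 37 acute phase and NF-kappaB genes 0 rose and 1, Nfkbiz, fell, against 0.422% of all genes, with a median of -0.17. A2m (-0.41, adjusted p = 0.0526) and Serpina3n (-0.57, adjusted p = 0.0582), both plasma protease inhibitors, had the next smallest p, and vehicle replicate 4 was far above the other vehicle arrays for both.

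Of 36 genes for folding and secretion in the endoplasmic reticulum 3 fell, against 0.422% of all genes, and 0 rose, with a median of -0.10. Qsox1, which makes disulfide bonds, fell by 1.02 on the log2 scale, Syvn1, the ligase that marks misfolded proteins, by 0.32 and Selenok, a selenoprotein of the membrane, by 0.26. Among 20 urea cycle and nitrogen genes 2 fell, against 0.422% of all genes, 0 rose and 18 did not pass. Asl, which splits argininosuccinate, fell by 0.59, and by 0.55 at the probe set used for the list. Slc25a22, the mitochondrial glutamate carrier, fell by 0.42. A sign below 0 was found for 16 of the 20, against 6714 of all 14217 genes, and the median was -0.13. Oat (-0.65, adjusted p = 0.0813) and Ass1 (-0.60, adjusted p = 0.177) did not pass. Akr1d1, of bile acid synthesis, fell by 0.74 (SE 0.15, adjusted p = 0.0191), but a brighter probe set of it was at -0.10 and did not pass. The thiamine carrier Slc19a2 (-0.75), the pyruvate kinase Pklr (-0.49), the acetyltransferase relative Nat8b (-0.66) and the dim probe sets of Bpnt2 (-0.66), Kcna2 (-0.58) and Lrch1 (-0.52) also fell. The 3 further probe sets of Bpnt2 lay between -0.14 and -0.03.

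Among these 19 falls the calls of Rnase4, Ang, Serpina7, Gpld1 and Plaat3 remained without any single array. Replicates 3 and 4 at 50 mg/kg each ended 11 of the others and vehicle replicate 4 ended 10, and each remaining array ended 3 to 8, at 0.797 to 1.198 times the full size. Without the muscle-carrying arrays Rarres1 passed and the 19 changes were 0.818 to 1.19 times as large.

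A further 22 falls, gathered after their values were seen, were of genes with varied roles. Nfkbiz, a nuclear partner of NF-kappaB, read 7.56, 7.59, 7.37, 7.45 and 7.40 at 50 mg/kg, against 8.98, 8.14, 8.10, 9.19 and 8.28 in vehicle. The exposed arrays were even and below all vehicle arrays, of which replicates 1 and 4 were the highest (log2 change -1.06, SE 0.21, adjusted p = 0.0167). A dimmer probe set of it was at 0.21, of the opposite sign, and did not pass (adjusted p = 0.185). Depp1, a target of FOXO factors in fasting, read 7.00, 7.15, 6.80, 6.37 and 7.35 at 50 mg/kg, against 8.20, 7.84, 8.01, 7.70 and 8.10 in vehicle (log2 change -1.04, SE 0.20, adjusted p = 0.0157). Avpr1a, a vasopressin receptor of hepatocytes, fell by 1.06 (SE 0.25, adjusted p = 0.0454), and exposed replicate 1, at 7.51, lay within the vehicle range.

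Fbxo33, a ubiquitin ligase subunit, read 7.56, 7.46, 7.48, 7.65 and 7.27 at 50 mg/kg, against 8.44, 8.10, 7.90, 7.95 and 8.05 in vehicle (log2 change -0.61, SE 0.10, adjusted p = 0.00535), and a brighter probe set fell by 0.40. Pcmtd2, a methyltransferase relative, fell by 0.55 (SE 0.10, adjusted p = 0.00712), with a brighter probe set at -0.35 that also passed. Both of their probe sets pointed the same way. Gdf11 (-1.03), a growth factor of the TGF-beta family, Gas6 (-0.74), a ligand of receptors on macrophages, Rasd2 (-0.99), Gen1 (-0.86), H4f3 (-0.83), Ighvl1 (-0.73), Mlc1 (-0.64) and Pet100 (-0.52) fell with other probe sets of Gdf11 (0.11), Gas6 (0.16 and -0.05), Rasd2 (0.00) and Pet100 (0.07) not passing. The locus LOC102554026, of no named function, fell by 1.44 (SE 0.27, adjusted p = 0.0131).

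Small falls of chromatin, splicing and signalling genes, named after their values were seen, came with mixed probe sets. Terf2 (-0.38), of telomeres, Kmt2c (-0.33), Crebbp (-0.27) and Mbtd1 (-0.37), of chromatin, Sf3b1 (-0.47) and Prpf4b (-0.34), of splicing, and Pik3ca (-0.40), a lipid kinase, passed. Brighter probe sets of Sf3b1 were at -0.10 and -0.12, the 4 others of Crebbp at -0.09 to 0.02 and the 5 others of Pik3ca at -0.18 to -0.05, and none passed. In all, 18 of the 183 called genes named here had a brighter probe set that did not pass, among them Terf2, Prpf4b, Mbtd1, Pklr, Kcna2, Lrch1, Wipf1, Ms4a6bl1 and Sdsl beside those given. Sat1 (-0.38), of polyamine breakdown, fell as well.

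Of these 22 calls those of Nfkbiz, LOC102554026, Fbxo33, Mlc1, Terf2 and Pcmtd2 remained without any single array. Replicate 4 at 50 mg/kg ended 14 of the others, replicates 2 and 3 and vehicle replicate 2 ended 12 each, and each remaining array ended 6 to 11, at 0.762 to 1.21 times the full size. In the fit lacking the muscle-carrying arrays none passed, at 0.585 to 1.32 times the full size, and Gen1 was at -0.50.

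**Figure D5:**
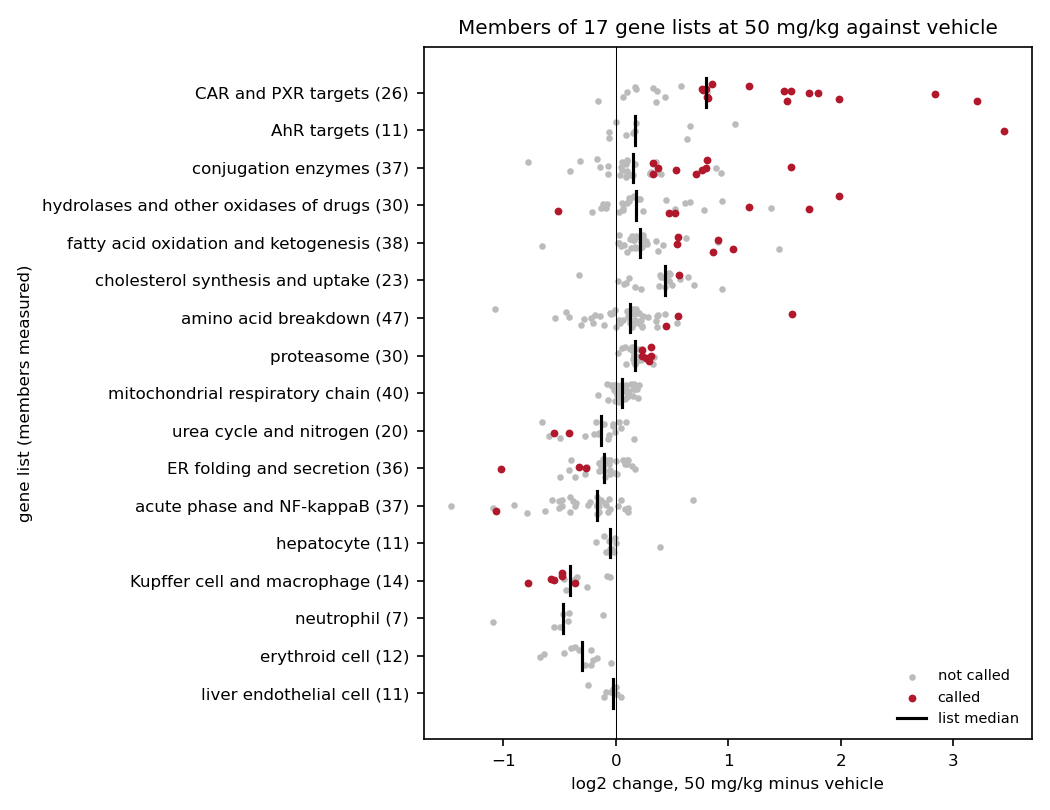
Each point is a gene of 1 of 17 lists, placed by its log2 change at 50 mg/kg against vehicle; red points were called, grey ones were not, and the black tick is the list's median. The members measured stand in brackets. Among these lists, chosen with earlier results of these data known, CAR and PXR targets have the highest median, 0.80. The Kupffer cell and macrophage genes lie wholly left of 0.

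Receptor lists differed in how many members passed. The lists were chosen with earlier results of these data known, so these counts describe the lists and are no test of them. Of 26 CAR and PXR targets 15 rose, against 1.02% of all genes, 0 fell and 11 did not pass, with a median of 0.80. Of 11 AhR targets only Cyp1a1 passed, with a median of 0.17. Cyp1a2 was at 1.06 (SE 0.33, adjusted p = 0.155), and its 5 vehicle values from 7.01 to 9.09 reached into those at 50 mg/kg, 7.78 to 9.41. Ahr itself was at 0.66 (adjusted p = 0.123) and its dimmer probe set at 0.02. Of 21 NRF2 targets 3 rose, against 1.02% of all genes, with a median of 0.15. They were Me1, Gsta3 and Gstm1, with Gsta3 and Gstm1 also in the CAR and PXR list. Among 23 drug and lipid sensing nuclear receptors 0 passed (median -0.02). Lists in which 0 genes passed also included bile acid synthesis (16 genes, median -0.05), the growth hormone and IGF axis (16, -0.13), glucocorticoid responsive genes (14, -0.16), the circadian clock (17, 0.04), complement and coagulation (28, -0.10) and interferon responsive genes (26, -0.07). Small medians give no firm direction: when single arrays were omitted the median changed sign in 14 of 69 lists and families, all with a median within 0.13 of 0, among them bile acid synthesis, heme, glycogen and the nuclear receptors.

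Genes that neighbour each other on the chromosome sometimes changed together. Among 10035 pairs of adjacent protein-coding genes tested, taken from the RefSeq gene order of GRCr8, 9 pairs had both members called, and in all 9 they moved the same way. These were Cyp2c6v1 with Cyp2c7, Ugt2b1 with Ugt2b10, Gstt1 with Gstt3, Gstt3 with Ddt, Krt8 with Krt18 and Meox2 with Agmo among the rises. Among the falls they were C1qb with C1qc, Ang with Rnase4 and Gdf11 with Cd63. Members of the first 3 pairs are paralogs, whose probe sets may share transcripts, and Gdf11 has a further probe set that did not fall.

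Against 15 mg/kg, the next lower dose, 0 probe sets passed at 50 mg/kg (0% called), and the smallest adjusted p was 0.525. Of the 31042 tested 1749 had an unadjusted p under 0.05. Where nothing differs, a share of about 0.05 of all tested is expected there, so that count by itself shows no difference. In the alternatives run, 0 passed as well, with 1420 to 2111 at an unadjusted p under 0.05. The 2 doses share the vehicle arrays, so their own changes against vehicle are only set side by side. Those of Me1 were 0.84 at 50 mg/kg and 0.19 at 15 mg/kg, and those of Alas1 1.52 and 0.83. Ddc had 1.57 at 50 mg/kg and 0.93 at 15 mg/kg, Entpd5 0.97 and 0.42, and Mlc1 -0.64 and -0.06. Others were near equal, such as Meox2 with 1.75 at 50 mg/kg and 1.85 at 15 mg/kg, Ugt2b1 with 0.80 and 0.83, and Plaat3 with -0.73 and -0.66. None of these differences between the doses passed the test.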

How the data were processed

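Liver RNA from 20 samples was hybridised to 20 Affymetrix rat expression arrays, with 100 ng of total RNA amplified per sample, per the labels' protocols. The authors deposited log2 values per probe set made with RMA (robust multi-array average, which corrects background, equalizes arrays and summarises probes), per the submitters' processing notes. The RMA version is not given in the sources used here. The deposited values ran from 2.14 to 14.82, and the number of arrays limits the precision. Of 31099 probe sets 57 controls were left out, and 31042 were tested. A platform annotation gave 1 symbol for 20826 probe sets (14217 genes), several for 436 and none for 9780, and only those with 1 symbol are named. Of these 20758 matched RefSeq.

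With limma 3.58.1 in R 4.3.3, the 4 group means were estimated in a single model over all 20 arrays and share its estimate of the spread. The contrast was 50 mg/kg minus vehicle, two-sided, with Benjamini-Hochberg adjustment over the 31042 probe sets and a threshold of 0.05. In simulated data with known changes the same fit recovered 10% of probe sets changed by 0.25 log2 units and 70% at 0.5. It recovered 96% at 1 and 100% at 2, with 3 false calls. The simulated noise was independent between probe sets, with no content shared by an array such as muscle transcripts. These rates may therefore not hold for the real arrays. Gene lists (53) and symbol families (16) use for each gene the probe set of highest mean. The members and lists were chosen with earlier results of these data known, and the families after the values were seen. Named genes are the 40 largest rises and 40 largest falls, the called list members or up to 3 of smallest p, and others where said. Every named gene was thus chosen with values known, and those called named after their values were seen lie outside this rule. Promoter windows are RefSeq's for GRCr8, and figures were drawn with matplotlib 3.10.9. The alternatives were replicate blocks, other normalizations, filters, variance models, covariates and left-out arrays.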

Additional observations from a re-analysis of the deposited data

Results flagged for a closer look

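Among the 196 genes named or considered here, each group of 5 arrays was examined for a single array far from the rest by Dixon's ratio, and 25 of 392 examinations (6.38%) met the limit of 0.71. Chance gives about 1 in 20. Values are log2 levels, each beside the range of the other 4 arrays of its group.

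At 50 mg/kg, replicate 1 stood apart for Scly (9.42, against 9.73 to 9.81 in the others), Rarres1 (10.52, against 9.93 to 10.08 in the others) and Pla1a (8.96, against 8.73 to 8.77 in the others). At 50 mg/kg, replicate 2 stood apart for Psmb4 (12.13, against 11.94 to 11.99 in the others), Ndufaf1 (6.24, against 6.48 to 6.57 in the others), Entpd5 (9.86, against 9.40 to 9.53 in the others) and Manba (9.12, against 9.49 to 9.56 in the others). At 50 mg/kg, replicate 3 stood apart for Lyplal1 (9.44, against 9.66 to 9.72 in the others) and Sod1 (12.85, against 12.96 to 12.99 in the others). At 50 mg/kg, replicate 4 stood apart for C1qc (8.90, against 9.14 to 9.18 in the others) and Terf2 (5.28, against 5.52 to 5.57 in the others). At 50 mg/kg, replicate 5 stood apart for Prpf4b (7.76, against 7.94 to 7.98 in the others).

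In vehicle, replicate 1 stood apart for Alas1 (9.62, against 10.34 to 10.62 in the others), Por (10.05, against 8.88 to 9.06 in the others), Cyp3a23-3a1 (13.41, against 12.63 to 12.84 in the others), Cpt2 (10.34, against 9.56 to 9.72 in the others), Sar1b (10.99, against 10.65 to 10.71 in the others) and Mvk (7.71, against 8.34 to 8.51 in the others). In vehicle, replicate 2 stood apart for Pir (5.87, against 6.19 to 6.26 in the others) and Pdk4 (8.64, against 9.09 to 9.25 in the others). In vehicle, replicate 4 stood apart for Cd63 (10.96, against 10.51 to 10.53 in the others), Rdh7 (12.21, against 11.70 to 11.79 in the others), A2m (13.89, against 13.37 to 13.46 in the others) and Serpina3n (13.39, against 12.33 to 12.57 in the others). In vehicle, replicate 5 stood apart for Nsfl1c (10.13, against 9.88 to 9.92 in the others). Vehicle replicate 1 met the limit for 6 genes and vehicle replicate 4 for 4. The calls of Alas1, Pir, Pdk4, Lyplal1, Scly, Entpd5, Manba, Terf2 and Cyp3a23-3a1 remained when any single array was left out.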

How the results depend on the processing

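No called change turned its sign in any alternative. The blocks, filters, variance models and the fit of only the 10 arrays left every size unchanged, so no sign could turn in them. With the replicate number as a block, 235 probe sets passed over 20 arrays and 44 over the 10 compared (32 higher, 12 lower). The correlations of same-numbered arrays were 0, -0.36, 0.2, -0.17 and 0.24, and only replicates 3 and 5 correlated best with their own number. These few values do not settle whether the numbers pair the samples. Same-numbered exposed and vehicle arrays share the leading digit of their description number, whose meaning is not given in the sources used here. With that digit as a block 238 passed. With only the 10 arrays fitted 89 passed (64 higher, 25 lower), and with beta-actin 3' minus 5' as a covariate 193 (121 higher). Without variance shrinkage 65 falls passed. Without the arrays over 2 log2 units in muscle or pancreas transcripts 21 passed (18 higher, 3 lower), and in an alternative chosen after seeing the data, without those over 1 unit, 3 (3 higher, 0 lower). These last fits keep 3 and 2 arrays at 50 mg/kg. When each array was left out in turn the counts were 106 to 264, with 80 to 181 higher and 26 to 90 lower. Rises were 62.8% of calls, against 70.2% after quantile normalization again. Other alternatives gave 231 to 370 calls, and the causes were not tested. In simulated data, whose noise was independent between probe sets, 10% of changes of 0.25 log2 units were recovered, so small changes may often be missed.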

Other observations

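Of the 290 called probe sets 47 had no gene symbol or several, 40 with none and 7 with several, and 22 of the 47 were higher at 50 mg/kg. The largest rise among them was 2.14 on the log2 scale. They are given no gene name here.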
